A study of Mus musculus with 5 samples.

Results

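Csf2ra is the mouse gene for the alpha chain of the receptor for GM-CSF, and it lies near the distal end of chromosome 19. It was taken as 1 of the 1117 gene names that the authors set beside called peaks in 3 lists. Every peak naming Csf2ra as a neighbour was used, together with all other peaks on chromosome 19 that start at 61150000 or beyond. Peaks naming Csf2ra numbered 5 of 857 in the list for acetylated lysine 27 of histone H3 (H3K27ac) in wild-type (WT) cells. The counts were 5 of 844 for H3K27ac in Egr1-deficient (KO) cells and 5 of 847 for the transcription factor EGR1 in WT cells. A single further peak per list lay beyond them, so that the chromosome end held 6 peaks in each list.

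Dendritic cells had been derived from the femur marrow of C57BL/6J mice (BMDCs) with 10 ng/ml GM-CSF and were collected on day 6. All groups, WT and KO, then received 100 ng/ml lipopolysaccharide (LPS) and 20 mM L-(+)-lactic acid for 24 h, so no group was unstimulated. Chromatin was cut with an enzyme and precipitated with an antibody to acetylated H3 lysine 27 (WT and KO cells) or to EGR1 (WT cells only), and the DNA was sequenced (ChIP-seq). Each group is 1 library. The labels name neither the number of mice behind it nor the kind of Egr1 allele, and input DNA of both genotypes was not analysed here.

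GM-CSF binds the alpha chain encoded by Csf2ra with low affinity, and the beta common chain encoded by Csf2rb completes the receptor and carries the signal through JAK2 and STAT5. Myeloid progenitors, macrophages, granulocytes and dendritic cells carry this receptor, and the cultures studied here were grown on its ligand. H3K27ac marks active promoters and enhancers. EGR1 is a zinc finger factor of the immediate early response that binds GC-rich sites.

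RefSeq places Csf2ra on the minus strand of chromosome 19 (gene ID 12982, GRCm38.p6, the assembly of mm10), from 61217191 to 61228461. The transcription start used here is at 61228418, and RefSeq lists 16 transcripts. On this strand transcription runs away from the chromosome end and the region upstream of the gene faces that end. The authors' distances place the gene between 61224402 and 61228418, a span of 4017 bp. It begins at the same start site and leaves out 7211 bp that RefSeq adds at the far end. RefSeq also extends 43 bp beyond that start site, and the promoter stretch below includes these bases. Sequence under the peaks was not used here. The 250 bases before the start site (chr19:61228419-61228668, RefSeq, 5′ to 3′ on the gene's strand) are shown because H3K27ac at active genes is usually found around the promoter. Capitals mark the motifs found.

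Csf2ra promoter: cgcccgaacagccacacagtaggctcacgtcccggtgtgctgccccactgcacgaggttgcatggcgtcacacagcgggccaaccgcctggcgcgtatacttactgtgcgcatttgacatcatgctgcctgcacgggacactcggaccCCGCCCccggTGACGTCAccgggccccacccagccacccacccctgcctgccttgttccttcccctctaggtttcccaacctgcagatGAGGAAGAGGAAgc

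Both strands of this stretch were searched for 5 motifs. These were chosen with the sequence in view, so the shares given beside them do not measure how unusual a match is. Neither form of the EGR site, GCGTGGGCG (present in 0.536% of 32851 promoter stretches of the same length) or GCGGGGGCG (2.57%), was found. A GC box, GGGCGG, lay on the opposite strand from -102 to -97 (32.7% of promoters hold one), counting -1 as the base before the start. The cAMP response element TGACGTCA, the site of CREB and ATF factors, lay from -92 to -85 (1.55%). The core of the site of the myeloid factor PU.1, GAGGAA, occurred 2 times, from -14 to -9 and from -8 to -3 (23.3%). No motif overlapped another. The stretch was 64.8% G and C, against a median of 52.4% over all promoters. These matches describe letters in a window and say nothing of binding.

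No list held a peak on this promoter. The nearest peak ended 3768 bp away for WT H3K27ac, 3763 bp for EGR1 and 3798 bp for KO H3K27ac, and in each list it was the peak inside the gene. On the upstream side the nearest peak was 37.0 kb away for WT H3K27ac and 35.0 kb for both EGR1 and KO H3K27ac. Signal below the authors' threshold would not be in the lists.

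The peak inside Csf2ra was listed in all 3 libraries. In WT H3K27ac it ran from 61224334 to 61224651, was 318 bp long and had a peak shape score of 2.26 and a p-value of 0.01. The KO H3K27ac peak ran from 61224332 to 61224621, was 290 bp long and had a score of 1.91 and a p-value of 0.03. The EGR1 peak ran from 61224343 to 61224656, was 314 bp long and had a score of 2.17 and a p-value of 0.01. Score and p-value are the authors' own for each peak, and no peak in any list has a score under 1.65 or a p-value over 0.05. The KO value was thus the lowest of the 3 and the 2 WT libraries lay close together.

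**Figure D1:**
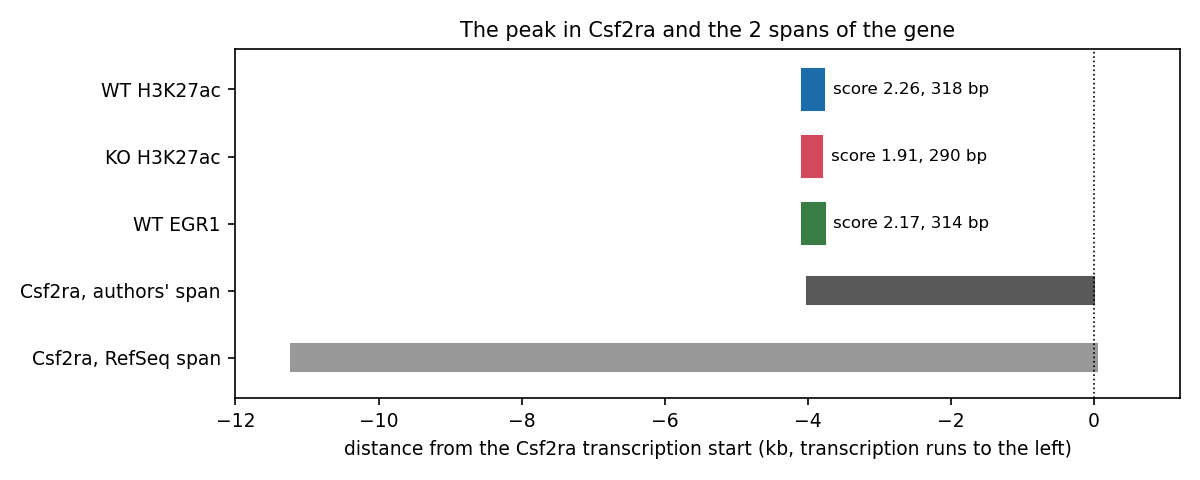
Extent of the peak in Csf2ra in each list (coloured bars) above the gene's span as the authors' distances give it and as RefSeq gives it (grey bars), against distance from the transcription start in kb. The 3 peaks lie 3.92 to 3.97 kb downstream of the start, across the end of the authors' span and inside the RefSeq span.

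This peak lay at the far end of the gene as the authors annotate it, not at its start. Its centre was 3934 bp downstream of the transcription start for WT H3K27ac, 3921 bp for EGR1 and 3970 bp for KO H3K27ac. The authors give a distance of 0, yet 250 of the 318 bp for WT H3K27ac, 255 of 314 bp for EGR1 and 220 of 290 bp for KO H3K27ac fell within their span. The remaining 68, 59 and 70 bp reached past its end. By RefSeq coordinates the whole peak was inside Csf2ra, 7143 bp from the gene's lower end in WT H3K27ac. The tables used here do not give exons, so whether it is exonic or intronic is not stated.

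Within each list this was a low-scoring peak. By score it ranked 555 of 857 for WT H3K27ac, 582 of 847 for EGR1 and 696 of 844 for KO H3K27ac. Peaks scoring lower made up 35.0%, 30.9% and 17.4% of these lists.

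The KO peak was shorter and lower than the WT H3K27ac peak by amounts that many other peaks also showed. The score differed by -0.35 (KO minus WT), the length by -28 bp and the centre by -36 bp. There were 136 matched peaks, the Csf2ra peak included, whose WT H3K27ac score was within 0.25 of the Csf2ra peak. Of these, again with that peak included, 42 differed in score by at least as much in either direction, 29 in length and 18 in centre. The 10th and 90th percentiles of the score difference in that set were -0.43 and 0.41. Matched peaks are those that overlap exactly 1 partner in each direction, and with 1 library per genotype they are the only measure of spread at hand. They give no test of genotype. How scores were scaled is not given, so a lower score is not a measure of less mark. In such bulk samples, the number of cells with the mark and its amount per cell cannot be told apart.

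EGR1 and WT H3K27ac were nearer to each other at Csf2ra, as they were over all matched peaks. Over all 814 matched peaks of this pair, median absolute differences were 0.11 in score, 3 bp in length and 1 bp in centre. For KO against WT H3K27ac, over 739 matched peaks, they were 0.28, 14 bp and 7 bp. At Csf2ra the EGR1 score differed by -0.09 (EGR1 minus H3K27ac), the length by -4 bp and the centre by 13 bp. Of 155 matched peaks in the same score range, the Csf2ra peak included in all counts, 82 differed in score by at least as much, 108 in length and 20 in centre. The shared sequence under the WT peaks was 309 bp for EGR1 with H3K27ac, and that of WT with KO H3K27ac was 288 bp.

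Along the chromosome end, the 3 lists covered 7 separate places, of which 5 were in all lists. In order toward the chromosome end, the first lay downstream of Csf2ra, 24489 bp from the authors' gene in WT H3K27ac and 15636 bp beyond the pseudogene Gm6020. It scored 7.75 for WT H3K27ac (61199592 to 61199912), 7.39 for EGR1 and 7.50 for KO H3K27ac, with p-values of 4.66e-15, 7.42e-14 and 3.08e-14. It was the highest of the peaks that name Csf2ra in every list, and it overlapped no RefSeq gene. Next came the peak inside Csf2ra.

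Upstream of the gene, 4 of the 7 places fell within 3557 bp, between 61263693 and 61267249. RefSeq annotates no gene there. Its last member, at 61266930 to 61267249 in WT H3K27ac, scored 5.91 for WT H3K27ac, 5.80 for EGR1 and 6.38 for KO H3K27ac (p-values of 1.73e-09, 3.23e-09 and 9.03e-11), the only shared place at the chromosome end where KO was the highest. Nearer to the gene, a peak at 61265654 to 61265967 in WT H3K27ac scored 2.05 there, 1.95 for EGR1 and 1.73 for KO H3K27ac. The other 2 places were not in every list, and both had scores close to the lowest that the lists hold.

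The first of these, at 61263697 to 61263987, was listed in KO H3K27ac with a score of 1.72 and in EGR1 with 1.65, and no WT H3K27ac peak overlapped it. The second, at 61266347 to 61266671, was listed in WT H3K27ac alone with a score of 1.71. Absence from the H3K27ac list of the other genotype was common at such scores. Of all WT H3K27ac peaks scoring 1.8 or less, 54 of 96 overlapped no KO peak, and of KO H3K27ac peaks in that range 52 of 96 overlapped no WT peak. Of EGR1 peaks in that range, fewer, 22 of 98, overlapped no WT H3K27ac peak. How many WT H3K27ac peaks in that range overlapped no EGR1 peak was not counted.

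**Figure D2:**
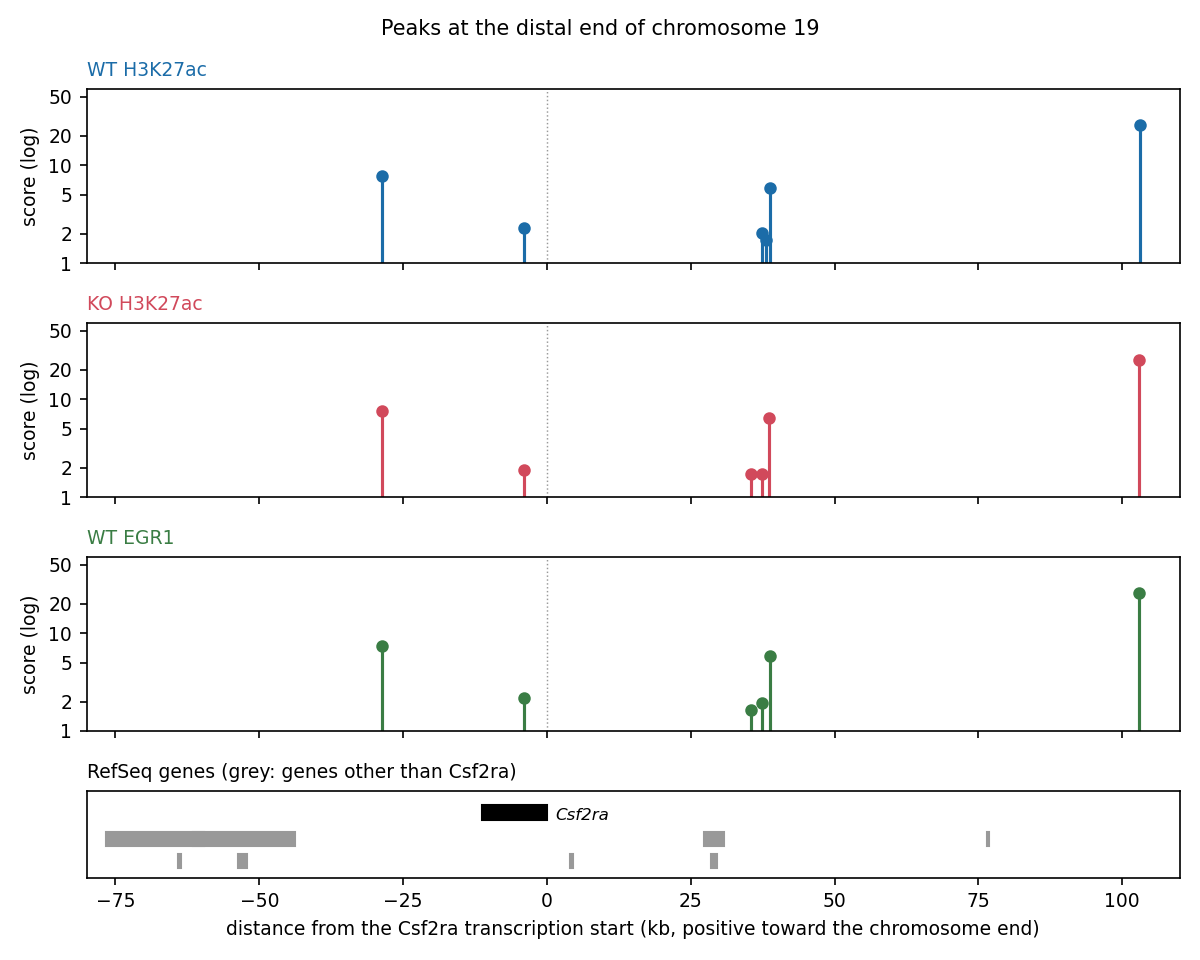
Peak shape score (log axis) of each peak at the distal end of chromosome 19 in the 3 lists, placed by its centre in kb from the Csf2ra transcription start, with RefSeq genes below. The same 5 places appear in every list, with scores near 7.5 downstream of the gene, about 2 inside it and about 25 at the chromosome end.

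The last place did not name Csf2ra. It lay at 61331263 to 61331582 in WT H3K27ac, 34193 bp beyond Gm21060, a predicted gene that the RefSeq table used here does not list, and 26.0 kb beyond Gm20762, a pseudogene and the last RefSeq gene of the chromosome. Its scores were 25.62 for WT H3K27ac (rank 9 in the list), 25.73 for EGR1 (rank 9) and 24.83 for KO H3K27ac (rank 6). In each list it stood above all other peaks of chromosome 19, and it lay 103 kb from the Csf2ra start. RefSeq lists 9 genes that reach into the region from 61150000 on. Of these, 6 are pseudogenes, 1 encodes a small nuclear RNA and 2 are protein-coding, Csf2ra and Gm7102.

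On the other side, the nearest peak before the region lay in Grk5, a kinase gene for G protein-coupled receptors, at 60924580 to 60924906 in WT H3K27ac. It scored 7.34 for WT H3K27ac, 7.37 for EGR1 and 7.46 for KO H3K27ac. A gap of 275 kb without a listed peak separated it from the first peak of the region.

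Overlap between lists at the chromosome end was near that of the whole lists. Of the 6 WT H3K27ac peaks there, 5 overlapped a KO H3K27ac peak by at least 1 bp, against 86.8% of all WT H3K27ac peaks. For the 6 KO H3K27ac peaks, 5 overlapped a WT H3K27ac peak, against 88.3%. EGR1 peaks overlapped WT H3K27ac in 5 of 6 cases, against 97.0%, and KO H3K27ac in 6 of 6, against 87.7%. The 95% Wilson interval of 5 of 6 is 43.6 to 97.0% and that of 6 of 6 reaches down to 61.0%, and both cover counting error over peaks only. The EGR1 share on WT H3K27ac over the whole list sat at the upper bound of that interval, and the other whole-list shares fell inside theirs.

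Peaks at the chromosome end were 314 to 325 bp long in WT H3K27ac, 290 to 316 bp in KO H3K27ac and 279 to 319 bp in EGR1. The medians of the whole lists were 324, 310 and 323 bp. KO H3K27ac peaks were shorter than the WT H3K27ac peak at 5 of 5, with differences from -28 to -5 bp, against 80.8% of 739 matched peaks. They scored lower at 4 of 5, against 53.3%. EGR1 peaks scored lower than WT H3K27ac at 4 of 5, with differences from -0.36 to -0.09, against 60.2% of 814 matched peaks, and were shorter at 4 of 5, against 54.9%. The highest and the lowest of the 3 scores differed by 0.35 in Csf2ra and by 0.32 to 0.90 over the 5 places.

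**Figure D3:**
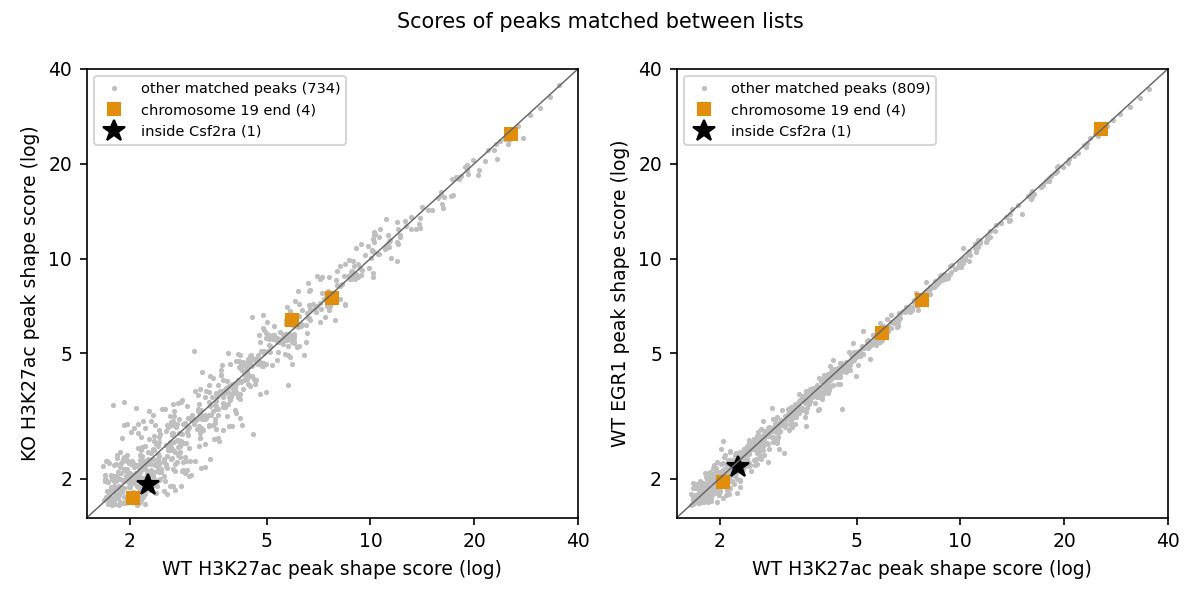
Scores of peaks matched between WT H3K27ac (x axis) and KO H3K27ac (left) or WT EGR1 (right), both axes log, with equal scores on the diagonal. The peak in Csf2ra (star, 2.26 against 1.91 and 2.17) and the 4 other shared peaks of the chromosome end (squares) lie within the cloud of other matched peaks (grey).

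The chromosome 19 end was set beside the distal ends of the other autosomes, using the last 182 kb up to the last RefSeq gene or peak. In WT H3K27ac, chromosome 19 had 6 peaks there, while 13 of the 18 other autosomes had 1, 2 had none and 3 had more. Chromosome 2 alone had more than chromosome 19, with 7 peaks for WT H3K27ac, 7 for EGR1 and 8 for KO H3K27ac. When peaks within 10 kb of each other were counted as 1 locus, chromosome 19 had 4 loci in every list and no other autosome had more than 3. The window length was that of the chromosome 19 region, which was chosen with earlier results of these data known. Its higher counts are therefore not an independent result. Where a peak lay beyond the last RefSeq gene, the window ended at a peak by construction. Chromosomes are not replicates, and no test was made.

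A peak beyond the last RefSeq gene was present on 17 of 19 autosomes for WT H3K27ac and for EGR1 and on 18 for KO H3K27ac. The additional autosome in KO H3K27ac was chromosome 4, where that peak scored 1.75, close to the lowest score of the list, 1.65. The chromosome 19 peak of 25.62 was the second highest among the distal windows in WT H3K27ac, where the highest was 25.91 on chromosome 12. In KO H3K27ac it was the highest, at 24.83.

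**Figure D4:**
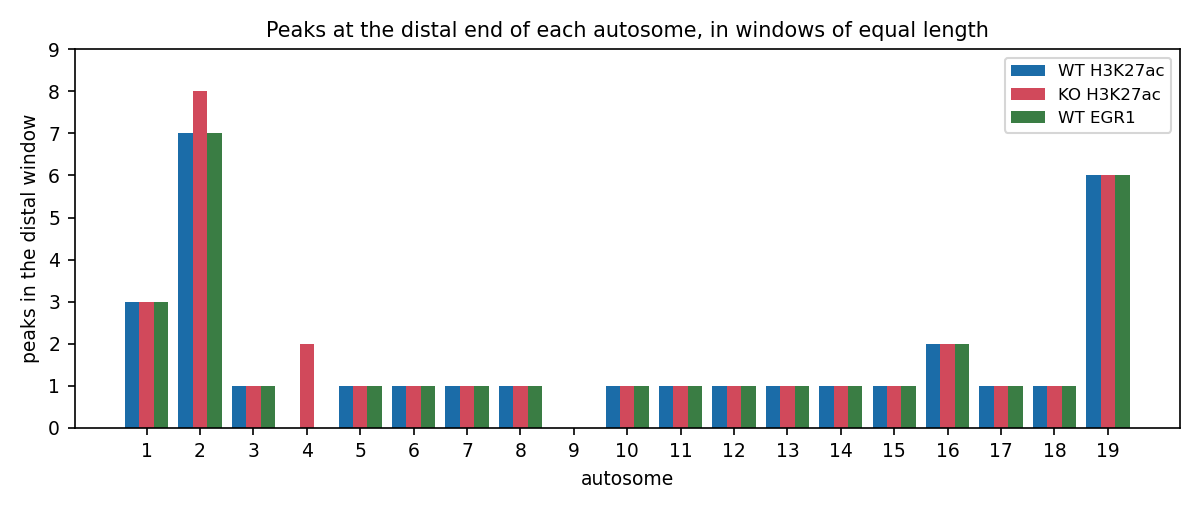
Number of called peaks in the 182 kb up to the last RefSeq gene or peak of each autosome in the 3 lists (bars). Chromosome 19 has 6 in each list, chromosome 2 has 7 or 8, and most other autosomes have 1.

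The other genes of GM-CSF signalling were examined through a list of 30, all of them in the RefSeq table. It held the ligands Csf2, Il3 and Il5, the alpha chains Csf2ra, Il3ra and Il5ra, the beta chains Csf2rb and Csf2rb2, and kinases such as Jak2 and Lyn. It also held STAT factors such as Stat5a and Stat5b, feedback genes such as Cish and Socs3, and targets and lineage factors such as Pim1, Mcl1, Spi1 and Irf8. In each of the 3 lists, 1 of 30 overlapped a peak, Csf2ra itself. Over 21787 protein-coding genes the share was 0.881% for WT H3K27ac, 0.895% for EGR1 and 0.858% for KO H3K27ac. Csf2ra is in the count because it was chosen, so no excess over these shares is read from it. Widening the distance to 2 kb (1.01%, 1.03% and 0.973% of protein-coding genes in that order) or 50 kb (2.94%, 3.0% and 2.75%) added no member. Csf2rb, the signalling partner of Csf2ra, thus had no listed peak within 50 kb.

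The labelled cell type could not be checked through its markers in these lists. Of 14 dendritic cell markers, among them Itgax, H2-Ab1, Cd74 and Zbtb46, none overlapped a peak or had one within 2 kb in any list, against 0.881% and 1.01% of protein-coding genes for WT H3K27ac, 0.895% and 1.03% for EGR1 and 0.858% and 0.973% for KO H3K27ac. Within 50 kb, where 2.94% of protein-coding genes had a peak in that list, there was 1, Batf3, whose product is needed for cross-presenting dendritic cells, 11901 bp by RefSeq from a WT H3K27ac peak that scored 2.79. Of 4 macrophage, 5 granulocyte and 3 lymphocyte markers, none had a peak within 50 kb in any list. At these shares, lists of this size would hold few or no members by their size alone.

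Genes with scores most like those of Csf2ra were sought among the 154 other genes that held exactly 1 peak in each list by the authors' distances. Likeness was the sum of absolute score differences over the 3 libraries. The nearest was Setd4, a gene of the SET domain family, with 2.31 for WT H3K27ac, 2.29 for EGR1 and 1.92 for KO H3K27ac, a sum of 0.18. Next were the long noncoding RNA gene Gm29260 (2.24, 2.20 and 2.08) and Hjurp, which encodes the chaperone of the centromeric histone CENP-A (2.29, 2.24 and 2.06). None of them lies on chromosome 19. Of the 154 genes, 38 scored lower than Csf2ra for WT H3K27ac, 33 for EGR1 and 16 for KO H3K27ac. The KO score was below the WT H3K27ac score in 94 of them, against 53.3% of all 739 matched peaks.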

How the data were processed

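Called peaks of 3 ChIP-seq libraries were used, 1 per group, with groups taken from the sample titles. The genome build is mm10 according to the submitters' processing notes. Several steps were not given in the sources used here, namely alignment, peak calling, filtering and any use of input DNA. The authors deposited for each peak its region, length and centre, the peak shape score with a p-value, and neighbouring genes with distances in bp, per the file headers. How scores were scaled between libraries is not given, so they are set side by side and not tested. Depth is unknown, since the lists hold no counts.

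Overlap meant at least 1 bp shared. Gene spans implied by the authors' distances counted a distance as the bases between peak and gene, the most frequent offset against RefSeq. Of 49997 RefSeq genes, 365 were left out. These had no known chromosome or a start out of order along it, which was taken as a position on another sequence. Overlap code was tested on simulated data. The rule for named genes took Csf2ra, neighbours of the region's peaks, list members with a peak within 50 kb and the 3 genes most like Csf2ra. Grk5, the marker and pathway examples and the other genes of the region were named outside this rule, with their values seen. The lists used were those of GM-CSF signalling, pseudoautosomal genes and cell type markers. Csf2ra, the region and the gene lists were chosen with earlier results of these data known. The promoter motifs were chosen with the sequence in view. Computation used Python 3.11.15 with numpy 2.4.6, pandas 2.3.3, matplotlib 3.10.9 and scipy 1.17.1.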

Additional observations from a re-analysis of the deposited data

How the results depend on the processing

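A count was taken as unchanged within 1.5 times the reported one, and a share of lower-scoring peaks within its 95% Wilson interval. By these limits 21 of 36 alternatives left the value and 15 moved it. The limit for counts is wide, since the 6 peaks at the chromosome end against 4 loci merged within 10 kb lie at its edge, as do 6 EGR1 peaks there against 4 with a score of at least 2. Counting peaks that overlap Csf2ra by RefSeq coordinates, or only those the authors place inside it, gave 1 in place of 5 in each list. Requiring a score of at least 2 left 2 peaks naming Csf2ra in KO H3K27ac and 3 in EGR1, and 3 peaks at the chromosome end in KO H3K27ac. The peak inside the gene in KO H3K27ac is then lost. With that score in both lists, 3 WT H3K27ac peaks overlapped a KO H3K27ac peak, 3 KO H3K27ac peaks overlapped a WT H3K27ac peak and 3 EGR1 peaks overlapped a KO H3K27ac peak. Among chromosome 19 peaks alone, 42.1% scored lower than the Csf2ra peak for WT H3K27ac, 38.9% for EGR1 and 26.3% for KO H3K27ac. A start of the region 100 kb further from or 50 kb nearer to the chromosome end, an overlap of 50% of both peaks and a distance of 1 kb changed each count by at most 1. No paired analysis was possible because each group is 1 library. Without replicates no library could be left out.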

Other observations

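Csf2ra is pseudoautosomal in human but autosomal in mouse, so genes that are pseudoautosomal in human or mouse were also counted. Of 18 such genes, 9 had coordinates on a placed chromosome in the RefSeq table. In each list 3 of the 18 held a peak by the authors' distances, namely Csf2ra, Asmt and Erdr1, the last 2 of which are in the mouse pseudoautosomal region. Over all protein-coding genes the share overlapping a peak was 0.881% for WT H3K27ac, 0.895% for EGR1 and 0.858% for KO H3K27ac. Csf2ra is in the count because it was chosen, 9 of the 18 genes have no placed coordinates, and nothing particular to the list is read from it. Csf2ra held 1 peak in each list. Asmt, the last enzyme of melatonin synthesis, held 2 in each list, with scores of 2.27 and 8.91 for WT H3K27ac, 2.28 and 8.63 for EGR1 and 3.28 and 9.79 for KO H3K27ac. Erdr1, which the authors place on chromosome Y, held 5 for WT H3K27ac (highest score 4.56), 5 for EGR1 (4.42) and 6 for KO H3K27ac (4.12). RefSeq coordinates place Erdr1 on chromosome X instead. There it overlapped a peak scoring 3.61 for WT H3K27ac, 3.55 for EGR1 and 2.69 for KO H3K27ac. By RefSeq coordinates, Crlf2, Gtpbp6 and Plcxd1, all on chromosome 5, had a peak within 50 kb but none inside, a distance at which 2.94%, 3.0% and 2.75% of protein-coding genes had one in WT H3K27ac, EGR1 and KO H3K27ac. The WT H3K27ac peak nearest to Crlf2, the receptor chain for TSLP, lay 39772 bp away and scored 1.73, and that of KO H3K27ac lay 39774 bp away and scored 1.66. The nearest EGR1 peak lay at another position, 41724 bp away, and scored 2.07. The peak near Gtpbp6 and Plcxd1 was the same one, with a score of 5.43 for WT H3K27ac, 5.39 for EGR1 and 5.53 for KO H3K27ac. Il3ra, the alpha chain of the IL-3 receptor, had no peak within 50 kb.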
